A study of Bos taurus with 12 samples.

Results

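The 6 MII oocyte libraries of this series did not resemble one another equally. Summed over all transcripts, 3 libraries held over 27000000 estimated counts and the other 3 held fewer, and these sets are described here side by side. The higher-total libraries were L oocytes 1 and 3 and M/G oocyte 3, and the lower-total libraries were L oocyte 2 and M/G oocytes 1 and 2, so that both sets held oocytes of both body condition groups. They are 3 and 3 of the 6 oocyte libraries and of the 12 libraries in the series, which also has 6 cumulus cell libraries. The libraries were chosen by their summed estimated counts, with their correlations already known, so the differences between them are given as a description, with no test, and the sets are states of a library and not a treatment.

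Each oocyte library came from a single oocyte of a different multiparous Holstein cow in milk, collected by ovum pickup, and the 12 libraries came from 9 cows. Cows of the L group lost body condition between calving and 27 to 33 days in milk, and cows of the M/G group maintained or gained it, with 3 libraries per group and cell type. The oocytes were freed of cumulus cells with hyaluronidase and of the zona pellucida with acidified Tyrode's buffer, and single lysates went into a low-input protocol with depletion of ribosomal RNA, while the cumulus libraries were made with another kit. Groups were taken from the sample titles, because the condition field of the records names the opposite group for all 12 libraries. The deposited tables give transcript identifiers without gene names, and none of them could be named (0 of the 38030 identifiers were found in the available gene table). Hence the labelled cell types could not be checked against named markers and transcripts are described by level, length and detection.

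An MII oocyte has completed its growth, is arrested at the second meiotic metaphase and makes almost no new RNA. Its RNA is the maternal store that was laid down while the oocyte grew and that supports maturation and the first divisions of the embryo. Cumulus cells are the somatic cells that enclose the oocyte and reach it through fine projections across the zona pellucida. They remain transcriptionally active, and their RNA differs strongly from that of the oocyte.

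The estimated counts summed to 31810285 in L oocyte 1, 29597824 in L oocyte 3 and 27742506 in M/G oocyte 3. In the lower-total libraries they summed to 23205042 in M/G oocyte 2, 17970492 in L oocyte 2 and 8073221 in M/G oocyte 1. M/G oocyte 3 was the library just inside the limit and M/G oocyte 2 the library just outside it. M/G oocyte 1 stood apart from the other 5 libraries in several measures, so values are given for each library, and those that rest on M/G oocyte 1 are also given without it. A limit of 3 counts, taken as the floor of detection, corresponded to between 0.0943 and 0.372 CPM (counts scaled to the library total) in these libraries.

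The number of transcripts detected did not separate the sets. Over 3 counts were found for 19844, 16735 and 19947 transcripts in L oocyte 1, L oocyte 3 and M/G oocyte 3, and for 19178, 13295 and 18462 in L oocyte 2, M/G oocyte 1 and M/G oocyte 2. L oocyte 3, with the second highest total, thus had fewer detected transcripts than 2 of the lower-total libraries. When the counts of every library were thinned at random to the smallest total, 8073172 counts, the numbers were 18523, 15827 and 18714 in the higher-total libraries. The thinned lower-total libraries had 18527, 13295 and 17497, and L oocyte 2 had about as many as L oocyte 1. The mean of the higher-total libraries was larger by 1864 transcripts as deposited and by 22.0 without M/G oocyte 1. Without M/G oocyte 1 and with the others also thinned to 17970458 counts, the difference was -229. The order of detection therefore did not follow the order of totals, and the size of the difference rested on M/G oocyte 1.

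**Figure D1:**
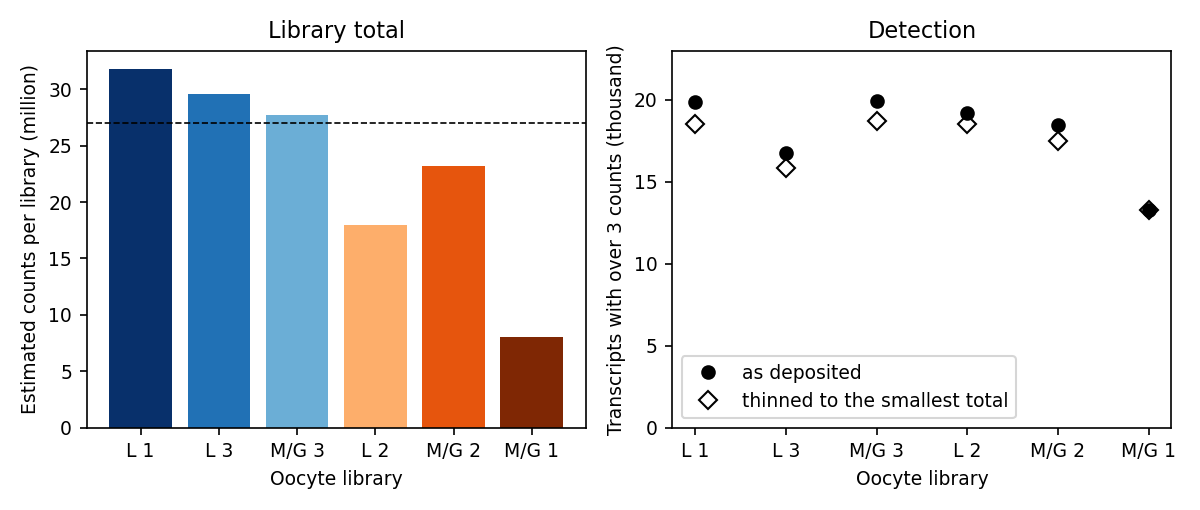
Left, estimated counts per oocyte library, as bars, with the limit of 27000000 counts dashed. Right, transcripts with over 3 counts, as deposited (filled circles) and after thinning to the smallest total (open diamonds); L 3 and M/G 1 had the fewest, one from each set.

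Transcripts with at least 100 counts were more numerous in L oocyte 2 and M/G oocyte 2 than in any higher-total library at matched totals. This level was found for 9727, 9431 and 9862 transcripts in L oocyte 1, L oocyte 3 and M/G oocyte 3. It was reached by 10622 transcripts in L oocyte 2, 10456 in M/G oocyte 2 and 8126 in M/G oocyte 1. The 1000 most abundant transcripts held 45.4%, 46.4% and 44.8% of the counts in the higher-total libraries, 42.2% in L oocyte 2, 43.2% in M/G oocyte 2 and 64.5% in M/G oocyte 1. In M/G oocyte 1 the 10 most abundant transcripts alone held 29.1%, and in the other 5 libraries the 10 most abundant held between 2.63% and 2.91%. The divergent libraries were therefore of different kinds, with counts spread more evenly than in the higher-total set in L oocyte 2 and M/G oocyte 2 and concentrated on few transcripts in M/G oocyte 1.

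Similarity was compared by Pearson's r of log2(FPKM + 1) over the 23686 transcripts with FPKM, the count scaled for effective length and library total, over 1 in at least 1 oocyte library. The coefficients are taken across transcripts, and transcripts are not replicates. The higher-total libraries correlated at 0.832 (L oocytes 1 and 3), 0.888 (L oocyte 1 and M/G oocyte 3) and 0.833 (L oocyte 3 and M/G oocyte 3). L oocyte 2 and M/G oocyte 2 correlated with the higher-total libraries at between 0.720 and 0.754, and with each other at 0.745. M/G oocyte 1 correlated with the higher-total libraries at between 0.380 and 0.398, and more closely with L oocyte 2 (0.540) and M/G oocyte 2 (0.501). After thinning to the smallest total no coefficient for the higher-total pairs was below 0.830, and the order of the pair types was kept. The closest pair joined an L oocyte with an M/G oocyte.

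Similarity was also computed for transcripts classed by their level in cumulus cells. Among 3286 transcripts with at most 3 counts in each of the 6 cumulus libraries, the higher-total pairs correlated at 0.719 to 0.781, and L oocyte 2 and M/G oocyte 2 with the higher-total libraries at 0.613 to 0.678. On these transcripts L oocyte 2 and M/G oocyte 2 correlated with each other at 0.592, below all of their coefficients with the higher-total libraries. Among 1218 transcripts with a median over 50 TPM (the count scaled for length to a fixed sum) in cumulus cells, the higher-total pairs correlated at 0.874 to 0.929, and L oocyte 2 and M/G oocyte 2 correlated with each other at 0.740. Their coefficients with the higher-total libraries on these transcripts were 0.630 to 0.689. On the same transcripts M/G oocyte 1 correlated with L oocyte 2 at 0.608, with M/G oocyte 2 at 0.568 and with the higher-total libraries at 0.339 to 0.382. On the transcripts absent from cumulus cells its coefficients were 0.246, 0.269 and 0.238 to 0.272 in the same order. L oocyte 2 and M/G oocyte 2 thus resembled each other more than they resembled the higher-total set on transcripts abundant in cumulus cells and not on those absent there, and both correlated less with M/G oocyte 1 than with the higher-total set in either class. Both classes were cut by cumulus level from transcripts that had passed the filter on oocyte FPKM, and were chosen after the oocyte values had been seen. Of the 3286 transcripts, 19.8% to 58.5% were detected per thinned oocyte library, so many passed the filter through a few oocytes.

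**Figure D2:**
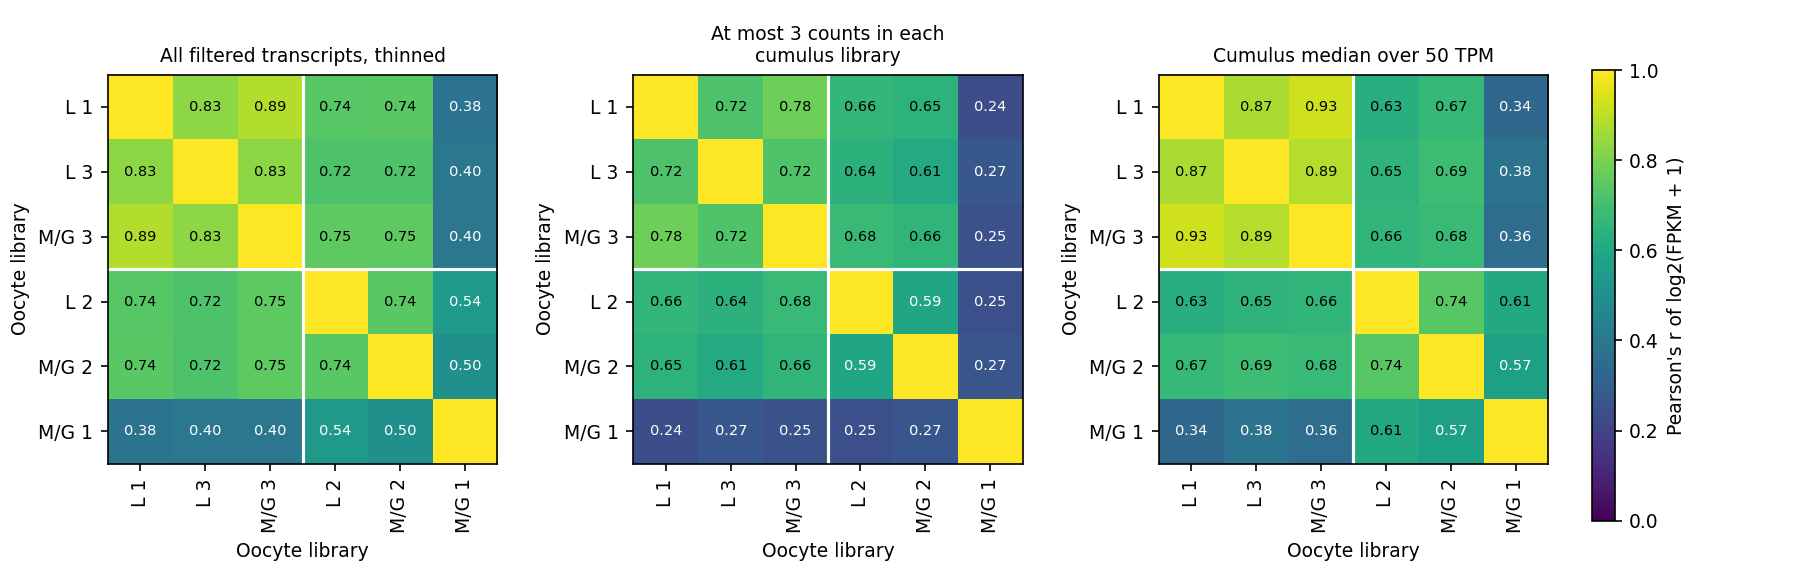
Pearson's r of log2(FPKM + 1) for each pair of oocyte libraries, over all filtered transcripts after thinning (left), transcripts with at most 3 counts in each cumulus library (middle) and transcripts with a cumulus median over 50 TPM (right); white lines divide the higher-total libraries (L 1, L 3, M/G 3) from the lower-total libraries. The higher-total block, chosen with its correlations already known, is the most alike in each panel. L 2 with M/G 2 exceeds their values with the higher-total libraries in the right panel (0.740) but not in the middle panel (0.592).

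Transcripts abundant in cumulus cells took a larger share of the counts in each lower-total oocyte. The 1218 transcripts with a cumulus median over 50 TPM held 11.5%, 12.3% and 12.2% of the counts in L oocyte 1, L oocyte 3 and M/G oocyte 3. They held 19.4% in L oocyte 2, 16.8% in M/G oocyte 2 and 53.1% in M/G oocyte 1, against 50.2% to 77.6% in the cumulus libraries themselves. The sets did not overlap, and the share in M/G oocyte 1 lay within the cumulus range. The median FPKM of these transcripts was 29.3, 27.7 and 32.3 in the higher-total libraries and 78.6, 80.0 and 59.6 in L oocyte 2, M/G oocyte 1 and M/G oocyte 2. Without the 23 transcripts that were among the 10 most abundant of any oocyte library, the shares were 10.8%, 11.0% and 11.4% against 17.1%, 33.3% and 14.9%. The mean of the higher-total libraries was lower by 17.8 percentage points, and by 6.10 without M/G oocyte 1. In bulk libraries such as these, RNA of attached or carried-over cumulus cells and a higher level inside the oocyte cannot be told apart.

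At the other end of the scale, transcripts with a cumulus median under 0.1 TPM were reduced in share in the lower-total libraries. Shares of a library add up to a fixed total, so a larger share of the abundant class lowers the others. These 8609 transcripts held 19.7%, 19.7% and 19.3% of the counts in the higher-total libraries. Their share was 15.5% in L oocyte 2, 17.7% in M/G oocyte 2 and 5.62% in M/G oocyte 1. The class from 10 to 50 TPM differed less, with 26.9% to 27.6% in the higher-total libraries and 28.6%, 27.7% and 21.6% in L oocyte 2, M/G oocyte 2 and M/G oocyte 1.

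Each library was also set against the higher-total libraries transcript by transcript, on CPM scaled by TMM, a normalization that limits the weight of a few abundant transcripts. Among transcripts with a cumulus median over 50 TPM, 39.9% lay at least 2-fold above all 3 higher-total libraries in L oocyte 2, 32.8% in M/G oocyte 2 and 54.8% in M/G oocyte 1. For each higher-total library against its other 2, which is the easier condition to meet, the shares were 4.02%, 8.21% and 7.31% in L oocyte 1, L oocyte 3 and M/G oocyte 3. Among transcripts with a cumulus median under 0.1 TPM the shares were 13.8%, 13.0% and 12.5% in L oocyte 2, M/G oocyte 2 and M/G oocyte 1 and 12.9% to 15.1% in the higher-total libraries. Over all filtered transcripts they were 17.6%, 16.0% and 21.6% in L oocyte 2, M/G oocyte 2 and M/G oocyte 1 and 10.6%, 10.1% and 11.3% in L oocyte 1, L oocyte 3 and M/G oocyte 3. The excess was thus largest at the highest cumulus level and was present in each of the lower-total libraries. The higher-total libraries were chosen with their correlations known, so low shares among them follow in part from that choice. M/G oocyte 1 differed from the others by what it lacked, with 29.0% of all filtered transcripts at least 2-fold below the higher-total libraries against 7.90% in L oocyte 2 and 10.3% in M/G oocyte 2. Within the higher-total set, L oocyte 3 lay at least 2-fold below both others for 17.0% of transcripts, against 6.86% for L oocyte 1 and 6.39% for M/G oocyte 3.

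**Figure D3:**
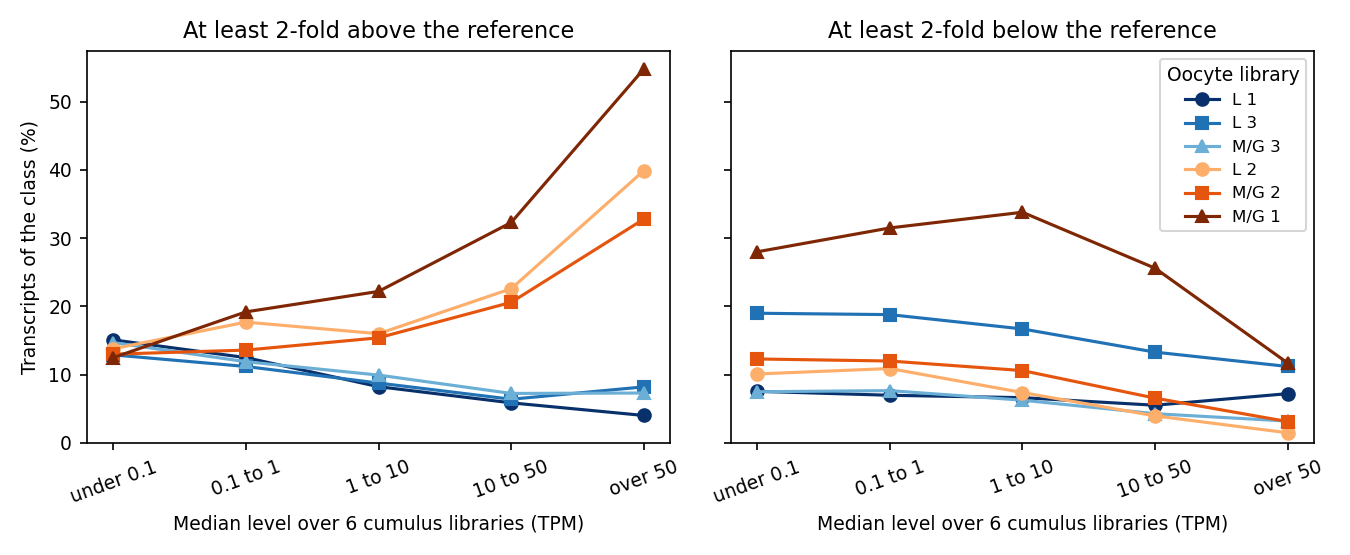
Share of filtered transcripts at least 2-fold above (left) or below (right) the reference, by the median TPM of the transcript over 6 cumulus libraries; the reference is all 3 higher-total libraries for L 2, M/G 1 and M/G 2, and the other 2 of them for L 1, L 3 and M/G 3. In the left panel the lower-total libraries reach 32.8% to 54.8% at over 50 TPM and the higher-total libraries stay at 8.21% or less.

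Detection of transcripts missing from a reference set was also higher at 10 to 50 TPM than under 0.1 TPM in cumulus cells. This held in both sets of libraries, with higher shares at 10 to 50 TPM in the lower-total set. The reference libraries were taken as deposited, and detection in the compared library was taken after thinning to the smallest total. In all 3 higher-total libraries 14321 transcripts had at most 3 counts. Of these, those with a cumulus median under 0.1 TPM were detected at 7.79% in L oocyte 2, 5.14% in M/G oocyte 1 and 4.90% in M/G oocyte 2. Of the 201 with a cumulus median of 10 to 50 TPM, 57.7%, 60.7% and 58.7% were detected in the same libraries, and of the 47 over 50 TPM, 72.3%, 59.6% and 63.8%. Over all 14321 transcripts the shares were 11.8%, 9.12% and 8.64%. When each higher-total library was set against the other 2, transcripts that these did not detect were found at 6.92%, 3.87% and 7.07% in L oocyte 1, L oocyte 3 and M/G oocyte 3 when under 0.1 TPM in cumulus cells. At 10 to 50 TPM they were found at 20.8%, 14.3% and 26.6%, at over 50 TPM at 14.5%, 16.9% and 31.7%, and over all levels at 8.83%, 5.38% and 9.38%. Of the 201 transcripts, 79 were detected in all 3 lower-total libraries, and of the 12309 transcripts under 0.1 TPM, 38 were.

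Each oocyte library was also correlated with the 6 cumulus libraries over all filtered transcripts. Here r was taken between log2(FPKM + 1) of the oocyte and log2(TPM + 1) of the cumulus library. It had a median of 0.316, 0.320 and 0.334 in L oocyte 1, L oocyte 3 and M/G oocyte 3. The median was 0.481 in L oocyte 2, 0.447 in M/G oocyte 2 and 0.569 in M/G oocyte 1, without overlap between the sets. An oocyte library and a cumulus library shared a cow number in 3 cases. The cumulus library of the same cow ranked 5th of the 6 for L oocyte 2 (r = 0.445), 1st for M/G oocyte 1 (0.590) and 4th for M/G oocyte 3 (0.322). These cumulus libraries had 10522870, 8822935 and 11879885 counts and 13061, 20624 and 13176 detected transcripts.

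A narrower list, of transcripts with at least 50 TPM in all 6 cumulus libraries and a median of at most 1 TPM in the oocytes, had been planned as the measure of cumulus RNA and gave no such order. It held 6 transcripts, which together took 0.101%, 0.000119% and 0.00956% of TPM in L oocyte 1, L oocyte 3 and M/G oocyte 3. They took 0.0217%, 5.5e-13% and 0.00639% in L oocyte 2, M/G oocyte 1 and M/G oocyte 2. The highest value was in a higher-total library and the lowest in M/G oocyte 1. In the cumulus libraries these transcripts took 0.142% to 0.578%, so M/G oocyte 1 lay far below the cumulus range by this list. The list with the limit at 20 TPM held 13 transcripts, and their share was 0.106%, 0.000122% and 0.00961% in the higher-total libraries and 0.0309%, 0.00201% and 0.0177% in the lower-total libraries. The planned list can hold only transcripts that most oocytes lack, and the wider class above has no limit on the oocyte level. On TPM the wider class, which has 1224 transcripts before the FPKM filter, took 30.8%, 32.6% and 31.3% in the higher-total libraries and 44.6%, 87.3% and 41.3% in L oocyte 2, M/G oocyte 1 and M/G oocyte 2. The planned list and the wider class thus placed M/G oocyte 1 at opposite ends of the oocyte libraries.

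Transcripts whose levels did not overlap between the sets at 2-fold were found in both directions. Of 23686 transcripts, 506 (2.14%) were at least 2-fold higher in the lowest of the higher-total libraries than in the highest of the lower-total libraries, and 1396 (5.89%) the reverse. The rule that chose the libraries used this contrast, so nothing is read from these counts. By cumulus level, a readout of other libraries, 27.9% of transcripts over 50 TPM and 0.894% of those under 0.1 TPM were among the transcripts higher in the lower-total libraries. For the transcripts higher in the higher-total libraries the corresponding shares were 0.164% and 3.31%. A cumulus median over 1 TPM was found for 89.7% of the transcripts higher in the lower-total libraries, for 32.0% of those higher in the higher-total libraries and for 53.0% of all tested. The 1396 transcripts took 0.828%, 1.05% and 0.901% of TPM in L oocyte 1, L oocyte 3 and M/G oocyte 3, and 10.6%, 11.8% and 6.21% in L oocyte 2, M/G oocyte 1 and M/G oocyte 2. The direction of this difference was set by how they were chosen. The median length was 2142 nucleotides for the transcripts higher in the higher-total libraries, 2040 for those higher in the lower-total libraries and 2121 for all tested.

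The leading transcripts of each direction were present in one set and at or near 0 counts in the other. ENSBTAT00000014539.4, of 4813 nucleotides, had 5542, 7724 and 3849 counts in L oocyte 1, L oocyte 3 and M/G oocyte 3 and 0 counts in each lower-total library. Its lowest level in the higher-total set was at least 286-fold higher than the floor of 3 counts in the lower-total set. ENSBTAT00000046340.4, of 9231 nucleotides, had 3151, 2058 and 2132 counts in the same order and 0 in each lower-total library, a difference of at least 147-fold. In cumulus cells the first reached at most 1.46 TPM, and the second had a median of 7.56 TPM and reached 12.5 TPM.

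In the other direction, ENSBTAT00000079839.1, of 3390 nucleotides, had 2615, 4409 and 4211 counts in L oocyte 2, M/G oocyte 1 and M/G oocyte 2 and 0 counts in each higher-total library. Its lowest level in the lower-total set was at least 1360-fold above the floor of 3 counts, and its cumulus median was 23.8 TPM. ENSBTAT00000084323.1, of 869 nucleotides, had 3408, 1959 and 3880 counts in the same libraries against 5, 3 and 17 in L oocyte 1, L oocyte 3 and M/G oocyte 3. Its lowest level in the lower-total set was 268-fold above its highest level in the higher-total set, and its cumulus median was 647 TPM. Among transcripts that did not overlap, 170 and 746 had at least 100 thinned counts in each of the higher libraries. The 4 named here ranked first in their direction by the ratio on thinned CPM plus 1, which is not the fold given above. Kallisto divides reads among similar transcripts, so a level of 0 may stand for reads given to another transcript of the same gene.

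After thinning, 8047 of the 38030 transcripts were detected in all 6 oocytes and 11973 in none. Detection was confined to the higher-total libraries for 340 and to the lower-total libraries for 418. A cumulus median over 1 TPM was found for 23.5% of the 340, for 76.1% of the 418 and for 82.2% of the 8047. It was found for 53.0% of the 23686 filtered transcripts. The most frequent incomplete pattern was detection in all libraries but M/G oocyte 1, with 3095 transcripts, of which 43.9% had a cumulus median over 1 TPM. Transcripts missing in 1 other library alone numbered 599 in L oocyte 3 and 141 to 332 in the remaining 4.

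The length of the transcripts that gave the counts separated M/G oocyte 1 from the rest, and L oocyte 2 and M/G oocyte 2 only slightly from the higher-total libraries. Transcripts of 2000 to 4000 nucleotides held 44.7%, 44.2% and 44.2% of the counts in L oocyte 1, L oocyte 3 and M/G oocyte 3. They held 41.9% in L oocyte 2, 42.8% in M/G oocyte 2 and 26.5% in M/G oocyte 1. Transcripts under 500 nucleotides held 1.35% to 1.55% in the higher-total libraries, 1.86% and 1.62% in L oocyte 2 and M/G oocyte 2 and 4.79% in M/G oocyte 1. Transcripts of 4000 to 8000 nucleotides held 21.8%, 21.6% and 20.9% in the higher-total libraries and 20.4%, 14.3% and 21.0% in L oocyte 2, M/G oocyte 1 and M/G oocyte 2. At over 8000 nucleotides the lower-total libraries were slightly higher, with 5.25%, 5.15% and 5.34% in L oocyte 2, M/G oocyte 1 and M/G oocyte 2 against 4.64% to 4.74%.

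The differences below 4000 nucleotides were smaller without transcripts abundant in cumulus cells, without M/G oocyte 1 and without the 23 transcripts among the 10 most abundant of any oocyte library. Without transcripts over 50 TPM in cumulus cells, the class from 2000 to 4000 nucleotides held 45.1%, 44.8% and 44.8% in the higher-total libraries, 44.2% in L oocyte 2, 44.5% in M/G oocyte 2 and 41.1% in M/G oocyte 1. The mean difference for transcripts under 1000 nucleotides (higher-total minus lower-total libraries) was -4.96 percentage points with all transcripts, -0.93 without M/G oocyte 1 and 0.12 with all libraries but without the transcripts abundant in cumulus cells. Without the 23 transcripts it was -2.09. For 2000 to 4000 nucleotides the difference was 7.30 percentage points, 2.02 without M/G oocyte 1, 1.65 without the transcripts abundant in cumulus cells and 3.22 without the 23 transcripts. At over 8000 nucleotides the difference remained, with 5.82%, 7.55% and 5.74% in L oocyte 2, M/G oocyte 1 and M/G oocyte 2 against 5.22% to 5.35%.

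**Figure D4:**
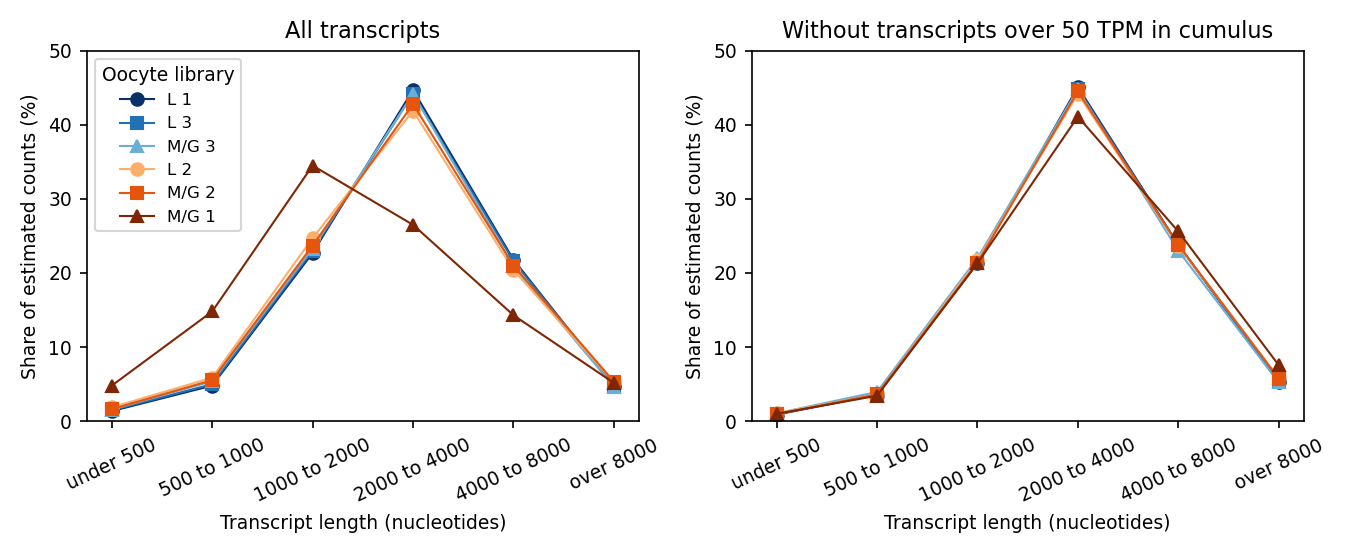
Share of estimated counts by transcript length in each oocyte library, over all transcripts (left) and without transcripts over 50 TPM in cumulus cells (right). M/G 1 departs from the other 5 libraries in the left panel, with 26.5% at 2000 to 4000 nucleotides, and in the right panel holds 41.1% there and lies outside the range of the others at over 8000 nucleotides, with 7.55%.

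Missing transcripts, those with 0 thinned counts, were compared at matched levels, taken as the median TPM of the other 5 oocytes. At 1 to 2 TPM, 22.4%, 40.3% and 20.2% of transcripts were missing in L oocyte 1, L oocyte 3 and M/G oocyte 3, and 26.6% and 27.5% in L oocyte 2 and M/G oocyte 2. M/G oocyte 1 lacked 745 of the 1491 transcripts at this level. At 50 to 100 TPM the shares were 1.26%, 1.82% and 0.713% against 0.959%, 16.7% and 1.40%. L oocyte 3 thus missed more low-level transcripts than L oocyte 2 and M/G oocyte 2, and at 50 to 100 TPM all libraries but M/G oocyte 1 missed few. Above 100 TPM M/G oocyte 1 still missed 9.63% and the others at most 0.943%.

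The spread of levels was smaller above 100 TPM than at 1 to 2 TPM in all libraries but M/G oocyte 1. The SD of the log2 ratio to the median of the other 5 libraries was 2.26 to 2.74 at 1 to 2 TPM over the 6 libraries. Above 100 TPM it was 1.42 or less in L oocyte 1, L oocyte 3 and M/G oocyte 3, 0.85 in L oocyte 2, 1.31 in M/G oocyte 2 and 3.12 in M/G oocyte 1. L oocyte 2 thus had the smallest SD at this level, while its median log2 ratio, -0.33, was the furthest from 0 of the libraries other than M/G oocyte 1.

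**Figure D5:**
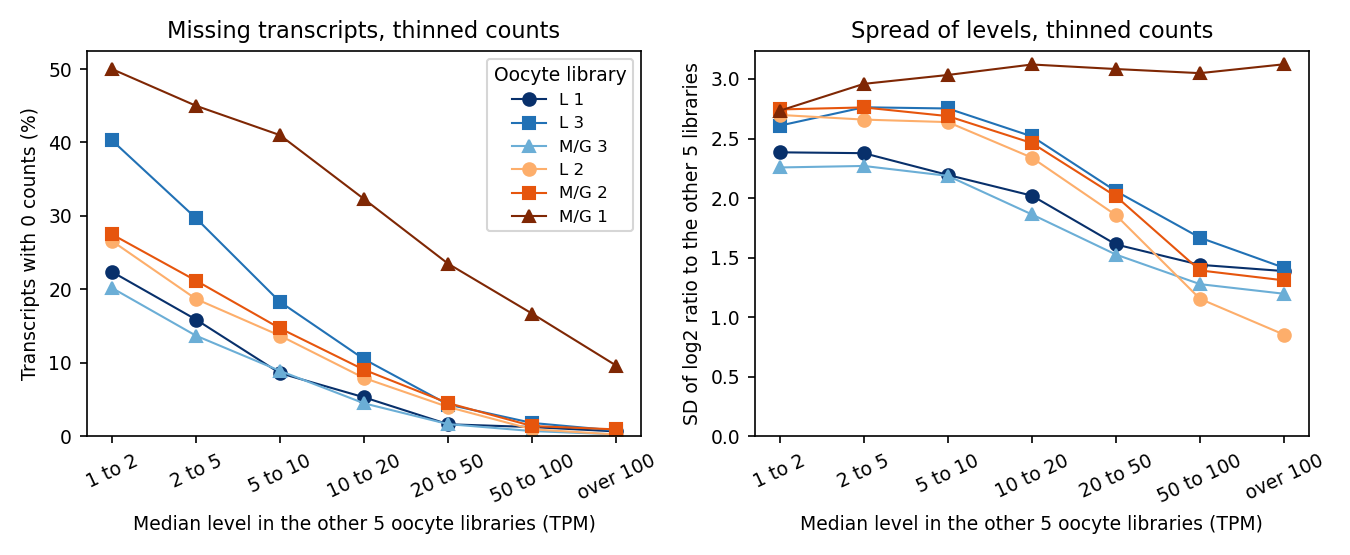
Share of transcripts with 0 thinned counts (left) and SD of the log2 ratio to the median of the other 5 oocyte libraries (right), by that median in TPM. M/G 1 lies above the other libraries at each level on the left, falling to 9.63% at over 100 TPM, and L 3 is the next highest at low levels.

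Transcripts abundant in one oocyte and absent from another were fewest between L oocyte 1 and M/G oocyte 3. Between 265 and 685 transcripts had at least 100 thinned counts in one higher-total library and 0 in another. Pairs with L oocyte 2 or M/G oocyte 2 but without M/G oocyte 1 gave between 608 and 1071, so that the ranges overlapped. L oocyte 2 had 792 such zeros against M/G oocyte 2, and the reverse gave 795. Zeros in M/G oocyte 1 were the most numerous, at 2186 to 2437 against the other 5 libraries. M/G oocyte 1 in turn had 880 to 1494 transcripts at 100 counts or more that another library lacked.

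The study's own comparison, L against M/G, runs across these sets. The study tested genes with DESeq2, and transcripts were tested here, so the calls below do not repeat its comparison like for like. In edgeR's quasi-likelihood test over the 6 oocytes, 0 of 23686 transcripts (0.0%) had a Benjamini-Hochberg adjusted p under 0.05. An unadjusted p under 0.05 was found for 516. DESeq2 called 310 of the 23686, 94 higher and 216 lower in the L group. With the set of the library as a term in edgeR the calls remained 0, and 243 transcripts had an unadjusted p under 0.05. The biological coefficient of variation, the spread between libraries of a group relative to the mean, was 1.73 without and 1.57 with this term. Within the higher-total libraries, L oocytes 1 and 3 against M/G oocyte 3, edgeR made 0 calls and 560 transcripts had an unadjusted p under 0.05. Within the lower-total libraries it made 1 call, with 512 at an unadjusted p under 0.05. In both of these fits 1 group had a single library, which was assumed to vary like those of the other group, so neither is a replicated test.

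The single transcript past the threshold, named here after its values were seen, was ENSBTAT00000086993.1, of 4494 nucleotides. It had 6236 counts in L oocyte 2 and 0 in M/G oocytes 1 and 2. In the higher-total libraries it had 3751 and 9744 counts in L oocytes 1 and 3 and 13274 in M/G oocyte 3, so its highest value was in an M/G oocyte and it was not called over all 6 libraries. Samples were separate oocytes of separate cows, so the spread in these tests is that between cows and libraries together.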

How the data were processed

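Single MII oocytes and cumulus cells of L and M/G cows were sequenced, with 3 libraries per group and cell type. Per the submitters' processing notes and the study's methods, the authors trimmed reads, used kallisto 0.44.0 with bovine cDNA from Ensembl, and excluded libraries with low exonic reads. The deposited tables hold an estimated count (expected count, not normalized) and a TPM value, which kallisto scales for effective length and total, for 38030 transcripts. Oocyte effective lengths were length minus 199 for long transcripts, and cumulus effective lengths were not, so the cell types were quantified with different settings. Cumulus levels were used to class transcripts, and the correlations and shares that set oocytes beside cumulus libraries span these settings and different library kits.

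The members, lists and alternatives were chosen with earlier results of these data known. The classes by cumulus level, the counts of abundant transcripts absent from another library and the per-library comparison were added after oocyte values had been seen. Estimated counts were rounded for thinning (without replacement, seed 1) and for tests. Shares of counts have 95% binomial intervals that reach at most 0.034 percentage points either side, from counting error only. L was tested against M/G with edgeR 4.0.16 (TMM, quasi-likelihood F test) in R 4.3.3, with DESeq2 1.42.0 as an alternative, and descriptions used Python 3.11.15, numpy 2.4.6 and pandas 2.3.3. The procedures were tested on simulated data with known changes. The counts simulated for edgeR varied far less between libraries than the oocytes did, so they do not show which changes the test can find here. Transcripts were filtered at FPKM over 1 in at least 1 oocyte library, with a pseudocount of 1 on the log2 scale, and a fold against undetected libraries was taken against 3 counts per library.

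Named transcripts were those that did not overlap, had at least 100 thinned counts in each higher library and had the largest ratio of the lowest higher to the highest lower library, 2 each way. Marker gene lists planned for named genes could not be used, and no sequences were used. Alternatives covered thinning, leaving out each library, scaling, filters, the detection limit and, for L against M/G, a replicate block.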

Additional observations from a re-analysis of the deposited data

Results flagged for a closer look

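M/G oocyte 1 lay further from the other 5 oocyte libraries than the limit of Dixon's test at 95% in 5 of 8 measures examined. Chance flags about 1 in 20 such groups, and the 5 measures share 1 library and are not independent. In this library the 1000 most abundant transcripts held 64.5% of the counts, and 288 transcripts were enough to hold 50% of them, against 1173 to 1436 in the other 5. Transcripts of 2000 to 4000 nucleotides held 26.5% of its counts, and transcripts with a cumulus median over 50 TPM held 53.1%. At 50 to 100 TPM in the other libraries, 16.7% of transcripts had 0 thinned counts in M/G oocyte 1. The 10 transcripts that were most abundant in M/G oocyte 1 took 29.1% of its counts, 2.44% in L oocyte 2, 1.84% in M/G oocyte 2 and 0.614% to 1.22% in the higher-total libraries, and 7.88% to 50.9% in the cumulus libraries. Its total was also the smallest, and the part of the total in these values was not tested beyond thinning.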

How the results depend on the processing

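Higher-total minus lower-total means are given here. With all libraries 1864 more transcripts were detected, and 22.0 to 2964 more with each library left out. Thinned to the second smallest total without M/G oocyte 1, the difference was -229. The mean r of higher-total pairs exceeded that of mixed pairs by 0.227, by 0.421 above a mean FPKM of 10 and by 0.111 to 0.285 with a library left out. Transcripts not overlapping were 506 and 1396 at 2-fold, 245 and 894 at 4-fold, and 763 to 1504 and 1616 to 2249 with a library left out, which asks less of a transcript. The difference for transcripts under 1000 nucleotides was -4.96 percentage points of counts, -15.8 on TPM, -2.09 without the most abundant transcripts, -7.12 to -0.93 with a library left out (-0.93 without M/G oocyte 1) and 0.12 without transcripts abundant in cumulus cells, and that from 2000 to 4000 nucleotides was 7.30, 3.22 without the most abundant transcripts and 2.02 (without M/G oocyte 1) to 10.2. The share on transcripts abundant in cumulus cells differed by -17.8 percentage points, -26.2 on TPM, -10.7 without the most abundant transcripts and -24.2 to -6.10 with a library left out, a measure and alternatives chosen after seeing the data. For L against M/G, edgeR made 0 calls with every library left out in turn, with another normalization, without the filter and on thinned counts, 1 within the lower-total libraries (1 L against 2 M/G), and DESeq2 made 310. The cause of these changes was not tested. With a replicate block edgeR made 0 calls, and 204 transcripts had an unadjusted p under 0.05. Replicate numbers in the titles link oocytes of different cows, and the deviations of same-numbered libraries correlated at -0.19 to 0.08, so the numbers do not pair the libraries. With 3 libraries a set and 1 oocyte a library, oocyte and library cannot be told apart, and the floor of detection in M/G oocyte 1, 0.372 CPM, limits what can be said of rare transcripts.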
